A study of Mus musculus with 12 samples.

Results

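The proteasome subunit genes were followed in 12 single cultured CPCs, taken as all rows of the count table whose symbol starts with Psm, a letter from a to g and a number. The pattern matched 50 of 21729 genes. CPCs are cardiac progenitor cells, selected here as lineage-negative, c-Kit+ non-myocytes from hearts of 12-week-old FVB female mice by magnetic sorting, then grown on gelatin in serum medium with growth factors. Cells of passage 5 were picked one by one under a stereomicroscope, and each was made into its own Smart-Seq v4 library of poly(A) RNA. All 12 cells belong to 1 group without a treatment, and the labels name no animal or culture of origin, so they count as 1 sample. Values are therefore given per cell, with no test between cells.

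The 26S proteasome is the barrel-shaped protease that destroys proteins tagged with ubiquitin. Its 20S core is a stack of 4 rings, with alpha subunits (Psma genes) in the outer rings forming a gate and beta subunits (Psmb genes) in the inner rings carrying the cutting sites. The 19S cap recognises the tag, removes it, and unfolds the protein with a ring of ATPases (Psmc genes) held by non-ATPase subunits (Psmd genes). In cells exposed to interferon, Psmb8, Psmb9 and Psmb10 take the places of Psmb5, Psmb6 and Psmb7 and form the immunoproteasome, which is known for making peptides for antigen presentation.

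Of the 50 genes, 31 encode the standard 26S subunits: 7 alpha, 7 beta, 6 ATPase and 11 non-ATPase subunits. The others are 3 immunoproteasome subunits, 3 assembly chaperones of the 19S cap, 9 activators, inhibitors and 20S assembly chaperones, a near-copy of Psme2 (Psme2b), 2 tissue-specific core subunits (Psma8 and Psmb11) and Psmc3ip. Psmc3ip fits the name pattern through its binding partner, acts in meiotic recombination and is no subunit. In mm10 with the GENCODE vM21 annotation the 31 standard genes lay on 14 chromosomes. Psmb9 (chr17:34181987-34187764, minus strand) and Psmb8 (chr17:34197721-34201454, plus strand) were 9956 bases apart in the major histocompatibility region, and Psmb10 stood on chromosome 8 (chr8:105935735-105938444, minus strand). Their standard counterparts Psmb5 (chr14:54614119-54618022, minus strand), Psmb6 (chr11:70525367-70527858, plus strand) and Psmb7 (chr2:38588036-38644087, minus strand) were on other chromosomes.

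The sequence before the start site is shown for the catalytic genes whose levels are compared most closely here and whose upstream window lay outside annotated exons. Each is RefSeq sequence of GRCm38.p6, the assembly behind mm10, written 5′ to 3′ on the strand of the gene. It runs from 250 bases before the RefSeq start, which can differ from the annotated gene start, up to the first annotated exon. For Psmb6 no annotated exon came before the RefSeq start, and the sequence ends there. Capitals mark TGACNNNGC, the core of the antioxidant response element that transcription factors of the Nfe2l family bind.
Psmb5, chr14:54618023-54618245, minus strand: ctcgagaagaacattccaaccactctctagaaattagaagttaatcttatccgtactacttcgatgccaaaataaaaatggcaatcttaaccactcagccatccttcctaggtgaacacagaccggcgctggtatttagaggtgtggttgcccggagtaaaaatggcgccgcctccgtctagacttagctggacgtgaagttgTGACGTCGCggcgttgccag
Psmb6, chr11:70525107-70525356, plus strand: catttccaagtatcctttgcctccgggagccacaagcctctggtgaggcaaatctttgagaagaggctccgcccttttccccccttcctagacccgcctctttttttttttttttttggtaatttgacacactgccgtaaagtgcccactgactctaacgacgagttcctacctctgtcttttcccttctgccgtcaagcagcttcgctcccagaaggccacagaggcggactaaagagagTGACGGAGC
Psmb10, chr8:105938445-105938642, minus strand: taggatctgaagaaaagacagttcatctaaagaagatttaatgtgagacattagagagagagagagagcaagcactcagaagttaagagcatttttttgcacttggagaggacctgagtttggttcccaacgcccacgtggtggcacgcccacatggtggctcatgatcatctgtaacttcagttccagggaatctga

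Windows of 300 bases, from 250 before to 50 after the start, were found for 42 of the 50 genes and for 25 of the 31 standard subunits. Searched on both strands, TGACNNNGC occurred in 4 of those 25 (Psmb5, Psmb6, Psmc6 and Psmd12) and in 12.4% of 32851 windows of all genes. CCAAT occurred in 10 of the 25 and in 37.4% of all windows. Of the interferon-response motifs, TTCNNNGAA was found in the windows of Psmb8, Psmd2 and Psmg1 (8.3% of all windows), and GAAANNGAA in those of 4 standard subunits, Psmd9, Psme1 and Psmg4 (8.56% of all windows). The Psmb10 window held none of the 4 motifs, and the Psmb9 window held CCAAT. These are matches of letters, described without a claim of binding.

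Depth was 3453708 to 5690184 counts per cell, and 10022 to 11950 genes had a count in each. Several cells stood apart in other gene groups. Cell 10 carried 9457 CPM (counts per 1000000 counts of the cell) of 9 endothelial markers, against at most 58.27 in any other cell, with Vwf and Cldn5 at 0 in all cells. Cell 3 carried 7994 CPM of 9 interferon-response genes, followed by cell 7 with 3025 and a median of 192.4, and 1622 CPM of 9 blood markers, 1463 of it from Cd53, with Laptm5, Cd52, Tyrobp and Fcer1g at 0 throughout. Kit itself had counts in cell 10 alone (3.94 CPM), so the sorted marker was near 0 in cells labelled c-Kit+.

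Nearly all proteasome genes were detected in every cell. A count was found for 48 of the 50 in at least 1 cell and for 46 in all 12 cells, which is 95.8% of the 48, whereas 53.1% of the 14462 genes with any count were counted in every cell. All 31 standard subunits were counted in every cell, and the lowest count of any of them was 172. The genes with a cell at 0 were the tissue-specific Psma8 and Psmb11, at 0 in all 12 cells, and the immunoproteasome genes Psmb8 and Psmb9, each at 0 in 2 cells. Psma8, an alpha subunit of the testis, and Psmb11, the catalytic beta subunit of the thymus cortex, can at most have been at 0.527 to 0.869 CPM, the level that a count of 0 allows at these depths (3 counts). Psmb11 starts 3410 bases from Psmb5, whose transcript was counted in all cells.

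Together the 31 standard subunits made up 1.06% of all counts in the median cell, with a summed level of 10559 CPM. The sum was lowest in cell 5 (8316 CPM) and highest in cell 9 (13937 CPM), with cell 3 close behind (13895 CPM), a 1.68-fold range and a coefficient of variation (CV) of 17.3%. For scale, the CV was 20.2% for the sum of 86 ribosomal protein genes and 27.4% for the 8 CCT genes, which encode the chaperonin that folds actin and tubulin. By class, the medians were 3095 CPM for the alpha ring, 2290 for the standard beta ring, 1883 for the ATPases and 3271 for the non-ATPases. The alpha sum ran from 2153 CPM in cell 10 to 4377 in cell 4 and 5244 in cell 3, a 2.44-fold range that was 2.03-fold without cell 3. The non-ATPase sum had a 2.09-fold range with or without cell 3, from 2369 CPM in cell 5 to 4939 in cell 9. The ATPase sum stayed between 1443 CPM in cell 12 and 2567 in cell 9.

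**Figure D1:**
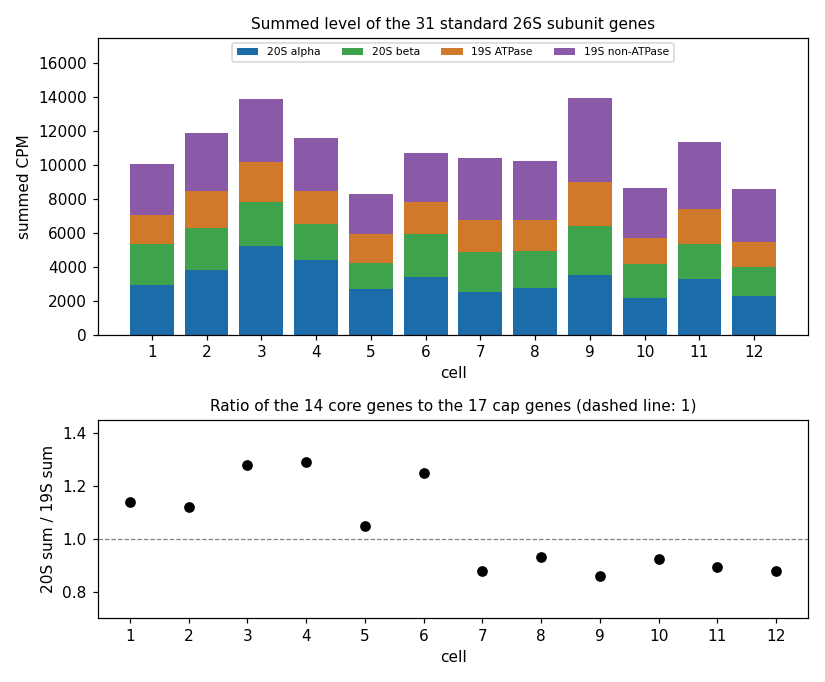
Upper panel: summed CPM of the 31 standard subunits in each cell, stacked by class (20S alpha, 20S beta, 19S ATPase, 19S non-ATPase). Lower panel: the 20S sum divided by the 19S sum per cell; cells 1 to 6 lie above 1, at 1.05 to 1.29, and cells 7 to 12 lie below, at 0.857 to 0.93.

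The balance of core to cap differed between cells. The summed 14 core genes were 1.29 times the summed 17 cap genes in cell 4, 1.28 times in cell 3 and 1.25 times in cell 6, but 0.857 times in cell 9 and 0.877 times in cells 7 and 12. The ratio was above 1 in cells 1 to 6 and below 1 in cells 7 to 12, an order of the labels' cell numbers that was noticed after the values were seen and that no label describes as a batch. Depth and gene number moved with it: cells with a ratio above 1 had 3453708 to 5025517 counts and 11216 to 11950 genes, and the others had 4770276 to 5690184 counts and, apart from cell 9 with 11329, 10022 to 10181 genes. Over the 12 cells the ratio had a Pearson r of −0.85 and a Spearman rho of −0.68 with the total count. The part of depth in this difference was not tested.

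On the log2(CPM + 1) scale, the median deviation of the core genes from their own medians minus that of the cap genes was 0.26 in cell 3 and −0.26 in cell 9, a range of 0.53 over cells. Core transcripts are shorter (median 1162 bases of coding transcript, against 1785 for the cap), while GC content is similar (medians 48.9% and 49.7%), and cells differed in how levels of all genes followed length and GC content. The core-to-cap ratio had r of −0.21 over the 12 cells with the slope of all genes on length and −0.66 with the slope on GC content. The part of either in the ratio was not tested beyond the adjustments that follow. With the trend of 8338 genes on transcript length removed in each cell, the same difference was 0.06 in cell 3, 0.18 in cell 6 and −0.22 in cell 9, and lay within 0.02 of 0 in cells 1, 2, 4, 5, 10 and 12. With the trend on GC content removed, it was 0.15 in cell 3 and −0.22 in cell 9. On the GC-adjusted scale cells 1 to 6 lay at −0.02 (cell 2) or above and cells 7 to 12 at −0.09 (cell 10) or below, without overlap. The split into cells 1 to 6 and 7 to 12 was not kept on the length-adjusted scale, where cells 10 and 12 (each −0.01) overlapped with cells 1 (−0.02) and 4 (−0.01).

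The 7 alpha subunits, which close the ends of the core, were all counted in all 12 cells. Psma6 had the highest level per length of all 31 standard subunits, with a median of 352 CPM per kilobase of the union of its exons, against 108 for Psma4, the lowest of its class. Psma6 had 251 CPM in cell 1, a median of 435, 873 in cell 4 and 1068 in cell 3. Its CV of 47.3% was the highest of the class and fell to 36.5% without cell 3, below that of Psma2 (39.6%, and 40.6% without cell 3). Psma3 was highest in the same cells, at 427 CPM in cell 8, 1187 in cell 4 and 1292 in cell 3. The Pearson r of Psma3 with Psma6 was 0.92 over 12 cells and 0.86 without cells 3 and 10, and that of the cap subunits Psmd1 and Psmd12 was 0.92 in both cases. Psma4 was the steadiest alpha gene, at 225 to 386 CPM (CV 17%), and did not follow the rest of the complex (r −0.02 with the sum of the other standard subunits). The order within the class depended on the length used: per kilobase of the longest coding transcript, Psma7 was highest (587) and Psma5 lowest (204). Of the 75-base stretches of Psma5 transcripts, 39.8% also occurred in transcripts of other genes, mainly pseudogenes, and 20.9% of those of Psma3, so reads of these genes may have been lost to the rule of keeping uniquely mapped reads.

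Within the standard beta ring, the catalytic subunits were far from equal in transcript level. Psmb6, the caspase-like site, had 324 CPM in cell 5, a median of 424 and 732 in cell 9. Psmb5, the chymotrypsin-like site, had 30.2 CPM in cell 12, a median of 42.3 and 63.7 in cell 4. Psmb7, the trypsin-like site, had 40.4 CPM in cell 12, a median of 91.2 and 141 in cell 2. Per kilobase of exon union the lowest cell for Psmb6 (173) lay above the highest for Psmb5 (70.9) and for Psmb7 (41.3). Per kilobase of exon union the medians were 227 for Psmb6, 47 for Psmb5 and 26.6 for Psmb7, whereas the non-catalytic Psmb2 was the highest of the ring at 328. Per kilobase of coding transcript the order at the bottom turned, with Psmb5 at 47 and Psmb7 at 78.6, and the highest was Psmb3 at 563. Close copies and neighbours touch both low genes: 36.8% of the 75-base stretches of Psmb5 recur in Gm3375 or Mir686 and 24.1% of those of Psmb7 in Nek6, which overlaps it on the other strand. Among the steadier members was Psmb1, a structural beta subunit, at 392 to 690 CPM (CV 14.2%).

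**Figure D2:**
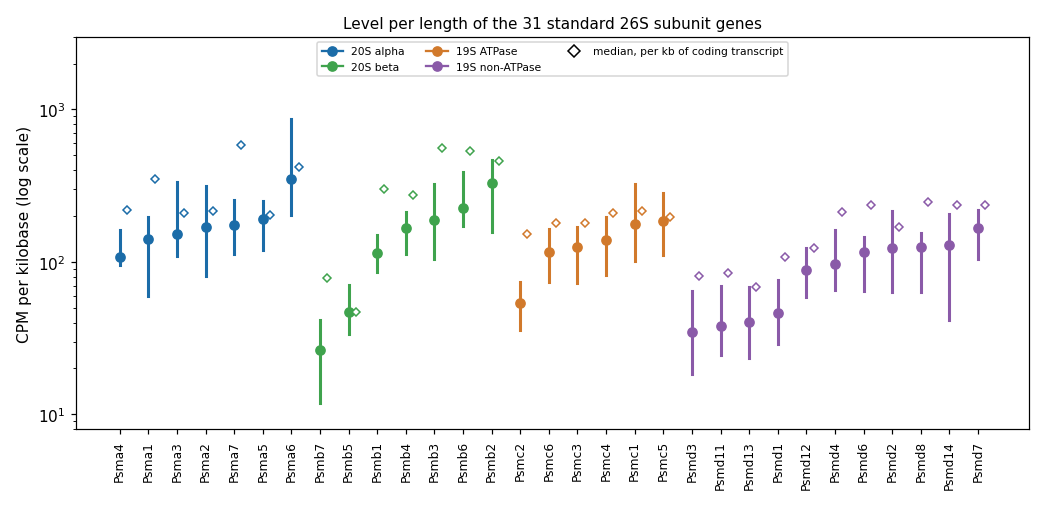
Level of each of the 31 standard subunits in CPM per kilobase on a log scale: filled points are medians over the 12 cells per kilobase of exon union, bars run from the lowest to the highest cell, and open diamonds are medians per kilobase of the longest coding transcript. Psmb7 (26.6) and Psmb5 (47) lie apart from the other beta subunits on both length scales.

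Among the 19S genes the ATPases were the most alike. Their medians per kilobase of exon union ran from 54 for Psmc2 to 185 for Psmc5, with a standard deviation (SD) over subunits of 0.65 on the log2 scale. Per kilobase of coding transcript they ran from 152 for Psmc2 to 217 for Psmc1, a 1.42-fold range and an SD of 0.18. The non-ATPase subunits spread more widely, with an SD of 0.84 by exon union and 0.72 by coding transcript. By exon union Psmd3, a lid subunit, was lowest (34.7) and Psmd7, the lid partner of the deubiquitinase Psmd14, was highest (166), while by coding transcript the ends were Psmd13 (68.1) and Psmd8 (248). Psmd14, which cuts ubiquitin off the substrate, varied from 118 CPM in cell 10 to 583 in cell 3. Psmd2, a ubiquitin-binding scaffold subunit, varied from 256 CPM in cell 5 to 871 in cell 9.

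Over all 31 standard subunits, of which the assembled particle holds 1 copy per ring or cap, the transcript level per kilobase had an SD of 0.94 on the log2 scale by exon union (13.2-fold from Psmb7 to Psma6) and 0.90 by coding transcript (12.5-fold from Psmb5 to Psma7). The corresponding SD for the 8 CCT genes, which also have 1 copy per ring, was 0.66 and 0.47. Cct6a is annotated as a processed transcript, so its exon union (3620 bases) served for both lengths. It was the lowest CCT gene on the coding scale, at 128 CPM per kilobase. Which subunits were high or low was shared between cells: the order of levels in a cell had a Spearman rho of 0.783 (cell 5) to 0.942 (cell 2) with the order of the medians over the other 11 cells.

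Over the 12 cells the immunoproteasome genes had the highest CVs of the proteasome genes (204% for Psmb8, 164% for Psmb9 and 119% for Psmb10). Without cell 3 these were 120%, 96.5% and 43.6%, and Psmb10 then lay below Psme3 (50.9%). Psmb8, the counterpart of Psmb5, was at 0 in cells 2 and 11 (which allows up to 0.741 and 0.541 CPM), had a median of 4.11 CPM, and reached 33.6 in cell 10 and 161 in cell 3. Psmb9, the counterpart of Psmb6, was at 0 in cells 8 and 11 (up to 0.545 and 0.541 CPM), had a median of 4.32, and reached 12.5 in cell 6 and 50.6 in cell 3. Psmb10, the counterpart of Psmb7, was counted in all cells, from 24.9 CPM in cell 11 through a median of 43.5 to 102 in cell 7 and 348 in cell 3. Cell 3 was thus the highest for each of the 3 genes, and it exceeded the next cell 4.78-fold for Psmb8, 4.05-fold for Psmb9 and 3.41-fold for Psmb10. Psmb9 shares 5.79% of its exon bases with Tap1 and Psmb8 14.7% of its own with Gm20496, both on the other strand, and without strand information reads there cannot be told apart.

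The share of the immunoproteasome member in each pair, from levels per kilobase of exon union, differed by pair. Psmb10 made up a median of 50.8% of Psmb10 plus Psmb7, from 43.3% in cell 11 (95% exact binomial interval 38.4 to 48.3%, 138 and 362 counts) to 84.5% in cell 3 (83 to 85.8%, 1320 and 487 counts). Psmb8 made up a median of 2.61% of Psmb8 plus Psmb5, with 18.4% in cell 10 (15.5 to 21.7%) and 47.9% in cell 3 (43.7 to 52.3%). Psmb9 made up a median of 0.61% of Psmb9 plus Psmb6 and 6.16% in cell 3 (5.32 to 7.09%). The share was highest for Psmb10 in each cell, and lowest for Psmb9 except in cell 2, where Psmb8 had no count, and cell 11, where both had none. Where the immunoproteasome gene had no count, the limit was 0.353% (cell 2) and 0.382% (cell 11) for Psmb8, and 0.0631% (cell 8) and 0.0654% (cell 11) for Psmb9. Intervals and limits cover counting error alone, and reads copied by PCR are not independent molecules. The 75-base stretches that recur in other genes were 36.8% for Psmb5 and 24.1% for Psmb7, but 3% for Psmb8 and 0% for Psmb10. For Psmb9 and Psmb6 they were 8.22% and 0%. Reads lost from Psmb5 or Psmb7 would raise these shares and that of the 3 pairs together, and the size of this was not tested.

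**Figure D3:**
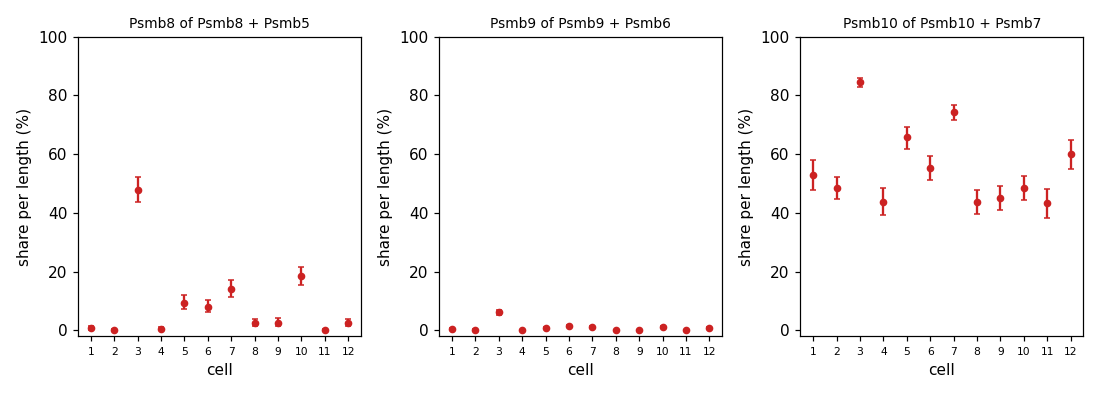
Share of each immunoproteasome gene in the pair with the standard subunit it replaces, in percent of the levels per kilobase of exon union, for each of the 12 cells; bars are 95% exact binomial intervals. Cell 3 is highest in each panel (47.9%, 6.16% and 84.5%).

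Over the 3 pairs together the share had a median of 9.28%, from 4.84% in cell 11 to 19.4% in cell 7 and 47% in cell 3. By coding transcript the median was 6.07%, from 2.93% to 37.9%, and the share of Psmb10 in its pair was lower (median 31.3%, 70.6% in cell 3). The share of Psmb8 in its pair was higher by coding transcript (median 5.28%, 65.6% in cell 3). On that length scale Psmb8 passed Psmb10 in cell 10, with 31.9% against 29.2%. Interferon-response genes moved with the share in cells 3 and 7, the cells with the highest sums of both. The summed antigen-presentation genes (Tap1, Tap2, Tapbp, B2m, H2-K1, H2-D1 and Erap1) were also highest in cell 3, at 10635 CPM against a median of 3633. In cell 10, which had the next highest Psmb8 level after cell 3, the interferon sum was 111.2 CPM, below the median, and the endothelial sum was 9457 CPM. The part of the interferon response, of blood markers or of cell type in these shares was not tested.

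The genes of PA28, the interferon-inducible cap that opens the core without ubiquitin, are Psme1 and Psme2, and both correlated positively with each immunoproteasome gene. Psme1 ranged from 28.9 CPM in cell 8 through a median of 73.6 to 155 in cell 7, and Psme2 from 98.4 in cell 8 through 147 to 337 in cell 3. Psme1 and Psme2 lie 5911 bases apart on chromosome 14 and had a Pearson r of 0.82 over the 12 cells (0.84 without cells 3 and 10). Psmb8 had r of 0.86 with Psmb9 (0.73 without cells 3 and 10), 0.91 with Psme2 (0.87), 0.65 with Psme1 (0.61) and −0.19 with its standard counterpart Psmb5 (−0.26). Psmb9 had r of 0.89 with Psme2 (0.81) and 0.66 with Psme1 (0.64). For Psmb10 the values were 0.71 with Psme2 (0.62) and 0.48 with Psme1 (0.64), the reverse order without cells 3 and 10. Psme3, which forms the nuclear PA28 ring, went the other way: it was lowest in cell 3 (32.4 CPM) and highest in cells 9 and 8 (191 and 174 CPM), with r of −0.66 with Psme2 (−0.59). These are descriptions over cells that share a culture medium and a scaling to the total. No filter on level was applied to these pairs. Psmb9, at a mean of 8.52 CPM, lay below the 10 CPM required in the comparison with all gene pairs. Psmb8, at a mean of 22 CPM, reached that level only through cell 3 (9.42 without it). Psme2b had 5.51 to 22.1 CPM, but 60.2% of its 75-base stretches are identical to Psme2, so its counts cannot be separated from those of Psme2 with confidence. The shared stretches make up 46.9% of those of Psme2, so the level and correlations of Psme2 carry the same limit.

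The other regulators had modest levels in every cell. Psme4, which encodes the PA200 activator, ranged from 29.1 CPM in cell 10 to 135 in cell 4, and Psmf1, the PI31 regulator, from 29.5 in cell 10 to 109 in cell 1. The 20S assembly chaperones Psmg1 to Psmg4 summed to 109.6 CPM in cell 10, a median of 212.9 and 353.3 in cell 2, and the 19S assembly chaperones Psmd5, Psmd9 and Psmd10 to 138 in cell 10, a median of 339.4 and 465 in cell 7. Cell 10 was the lowest for both chaperone sums. Psmc3ip, which is no subunit, had 23.5 to 50.7 CPM and shares 25.6% of its 75-base stretches with its neighbour Mlx.

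**Figure D4:**
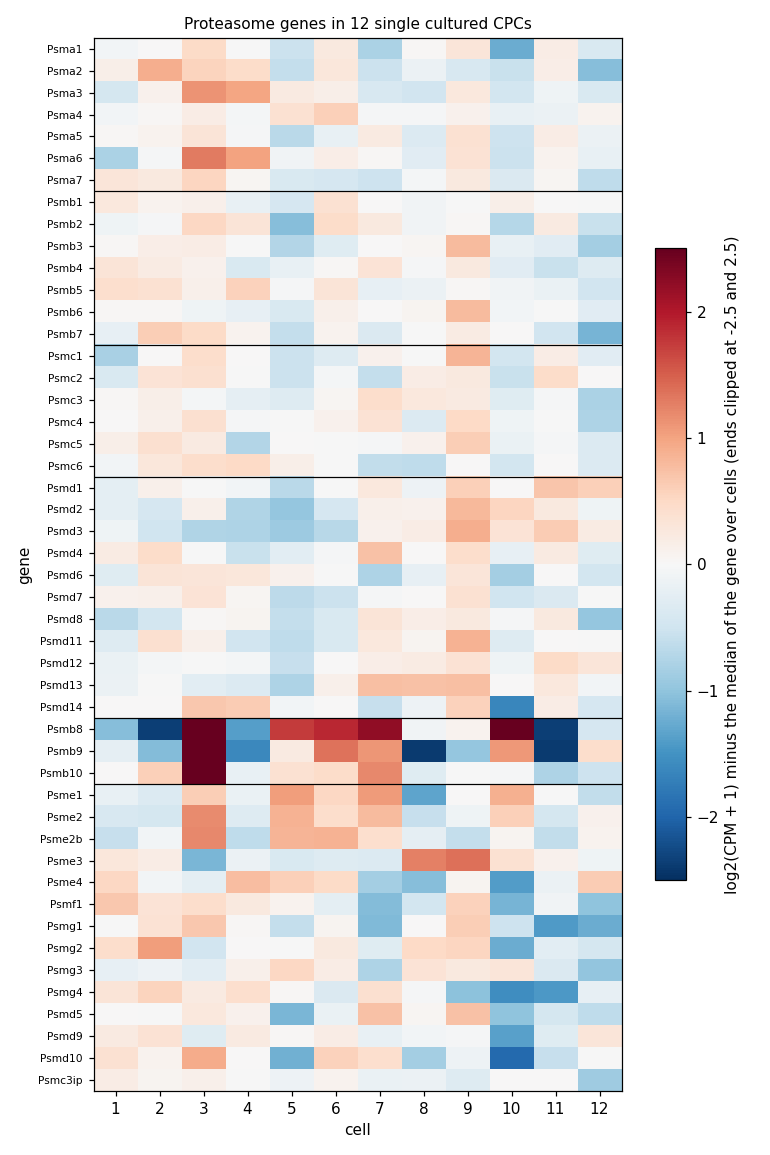
log2(CPM + 1) of 48 proteasome genes in each of the 12 cells, relative to its median level (red above, blue below, clipped at both ends), with lines between the alpha, beta, ATPase, non-ATPase, immunoproteasome and other genes. Psmb8, Psmb9 and Psmb10 show the strongest colours, highest in cell 3, while most standard subunits stay pale.

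Standard subunits tended to rise and fall together across cells. Among their 465 pairs the median Pearson r of log2(CPM + 1) was 0.34 and 80.4% of pairs were positive, while the median over all pairs of 8492 genes at a mean of 10 CPM or more was 0.02. Without cells 3 and 10 the medians were 0.30 and 0.01. The median was 0.52 for the CCT genes and 0.56 for the ribosomal protein genes. Between core and cap subunits the median r was 0.30 (0.26 without cells 3 and 10). Within classes it was 0.46 for alpha (0.23), 0.41 for beta (0.45), 0.40 for ATPase (0.26) and 0.37 for non-ATPase subunits (0.43), so the alpha value rested most on those cells. The lowest pair was Psmc6 with Psmd13 (r −0.62), and Psmd3 was in 4 of the 5 lowest pairs. As points, the cells share their scaling to the total, and no p-value is given.

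The summed standard level followed the sum of the CCT genes (r 0.61, rho 0.60, and r 0.82 without cells 3 and 10). With 7 mitotic cell-cycle genes it had r of 0.16 and rho of −0.07 (r 0.30 without cells 3 and 10), with the ribosomal protein sum r of −0.33 (−0.20) and with the total count r of −0.44 (−0.26). Cell 9 had the highest sum of standard subunits, of CCT genes (8943 CPM) and of cell-cycle genes (3725 CPM), whereas cell 5 had the lowest sum of standard subunits and of CCT genes (3946 CPM) beside the next highest cell-cycle sum (2495 CPM). The immunoproteasome sum had r of 0.47 with the standard sum and −0.15 without cells 3 and 10.

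Relative to genes of like abundance, standard subunits varied little between cells. Their median CV was 26.5%, against 55.7% for all 9701 genes tested, which are mostly less abundant. The residual of log10 squared CV from the running median of genes of similar mean was −0.24 in the median standard subunit and below 0 for 25 of 31, compared with 0.00 for all genes and 49.8% of them below 0. By class the median residual was −0.13 for alpha, −0.32 for beta, −0.36 for ATPase and −0.23 for non-ATPase subunits. It was −0.04 for the CCT genes and −0.26 for the ribosomal protein genes. All 48 counted members passed the filter of this comparison, with a median residual of −0.18.

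The members at the top of this scale were Psmb8 (1.07), Psmb10 (0.84), Psmb9 (0.55), Psma6 (0.26) and Psme3 (0.24). A residual as high as that of Psmb8 was found in 1.77% of all genes, and one as high as that of Psma6 in 22.1%. Cell 3 set much of this order: without it the residual was 0.31 for Psmb8, −0.11 for Psmb10, 0.08 for Psma6 and 0.18 for Psme3. Psmb8 was still the highest member, followed by Psma2 and Psme3 (0.18 each). Psmb9 passed the filter through cell 3 alone, with a mean of 8.52 CPM over 12 cells and 4.69 over the other 11, so its residual and its place in this order are a description of that cell. At the bottom were Psmc3ip (−0.98), Psmb1 (−0.78) and Psmg3 (−0.70), a 20S assembly chaperone at 6.85 to 21.5 CPM. The residual of Psmb5 was −0.66, so the counted transcript of the chymotrypsin-like subunit was both low and even. Stretches of Psmb5 recur in other genes, so some of its reads may have been lost.

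**Figure D5:**
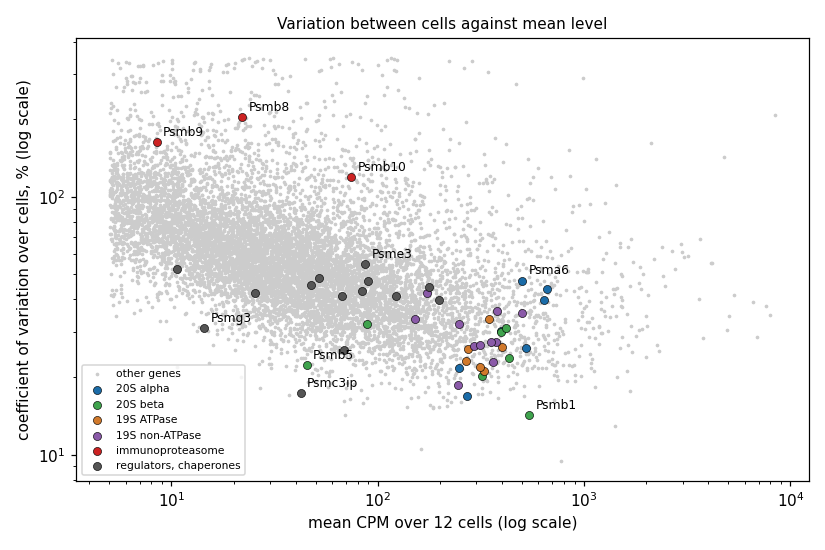
Coefficient of variation over the 12 cells (percent, log scale) against mean CPM (log scale) for genes at a mean of 5 CPM or more, with proteasome genes coloured by class and other genes as small grey points. The 3 immunoproteasome genes lie in the upper part of the cloud at their abundance, Psmb10 through cell 3 (CV 43.6% without it), and most standard subunits lie in its lower part.

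Single cells were compared with the median of the other 11 on log2(CPM + 1), first cells 3 and 10, which stood apart in other gene groups, and cells 5 and 9, the ends of the standard sum. In cell 3, 7 of the 48 counted members were at least 2-fold higher (all genes 8.78%): Psmb8, Psmb9, Psmb10, Psme2, Psme2b, Psma3 and Psma6. Psmb9 entered this count through its level in cell 3 itself, since the filter was a mean of 5 CPM over all cells. Psme2 and Psme2b share sequence, so they may not be separate signals in this count. Psme3 alone was at least 2-fold lower in cell 3 (all genes 25.3%), in a cell where the median gene was lower by 0.30 and the median standard subunit was higher by 0.24. In cell 10, Psmb8 and Psmb9 were at least 2-fold higher (all genes 15.5%) and 9 members were at least 2-fold lower (all genes 27.2%), among them Psma1, Psmd14, Psmf1, Psme4 and the chaperones Psmd5, Psmd9, Psmd10, Psmg2 and Psmg4.

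In cell 5, which had the lowest standard sum, Psme1 and Psmb8 were at least 2-fold higher (all genes 17.2%), and Psmb2, Psmd2, Psmd3, Psmd5 and Psmd10 were at least 2-fold lower (all genes 11.1%). The median standard subunit was lower there by 0.55 on the log2 scale, with 5 of 31 above 0, while the median gene was higher by 0.14 and 56.1% of all genes were above 0. Cells 5 and 9 were picked by the sum of these same subunits. The low subunits in cell 5 and the high ones in cell 9 therefore follow from the choice. In cell 9, which had the highest sum, 29 of 31 standard subunits were above the median of the other cells, with a median of 0.37, beside 59.1% of all genes and an all-gene median of 0.19. There Psmd3 and Psme3 were at least 2-fold higher (all genes 17%), and Psmg4 and Psmb9 at least 2-fold lower (all genes 10.7%). This count of 4 depended on the setting: it was 1 with a pseudocount of 5, 2 without cell 6 and 6 without cell 11, and Psmd3 stood at the limit (1.00 on the log2 scale). Of the remaining cells, described after their values were seen, cell 7 had 4 members at least 2-fold higher (Psmb8, Psmb9, Psmb10 and Psme1, all genes 12.8%) and Psmf1 and Psmg1 at least 2-fold lower (all genes 21.1%). Psmb8 and Psmb9 were also at least 2-fold higher in cell 6 (all genes 13.6%). In cell 12 no member was at least 2-fold higher (all genes 13.4%) and 5 were at least 2-fold lower (all genes 20.1%), namely Psma2, Psmb7, Psmf1, Psmg1 and Psmg3, with a standard median of −0.35. 

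Genes that work with the proteasome were also measured. Of 7 assembly factors and cap partners in the table, each was counted in all 12 cells (53.1% of the 14462 genes with any count). Their medians, not divided by length, ran from 54.2 CPM for AI314180 to 419 for Usp14, a deubiquitinase bound to the cap. Pomp, which helps the core rings to join, had 227 to 512 CPM and was highest in cell 3. Ubb and Rps27a, which encode ubiquitin, had medians of 702 and 638 CPM. Of the shuttle and extraction factors, 8 of 8 in the table were counted in all cells (again 53.1% of genes with any count), with medians from 24 CPM for Ubqln2 to 218 for Vcp. Nfe2l1, the transcription factor known for raising proteasome genes when the protease is blocked, had a median of 65.2 CPM, and Ddi2 and Ngly1, which process it, had 24.5 and 44.9. Nfe2l1 had r of −0.13 with the standard sum over the 12 cells, and Nfe2l2 had 0.18.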

How the data were processed

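Whole-transcript libraries of 12 single cultured CPCs (Smart-Seq v4, Nextera XT) were measured. The authors mapped reads to mm10 with STAR 2.5.2b, kept uniquely mapped reads and deposited raw read counts per gene and cell, without normalization. The counting program, annotation and strand rule are not given in the sources used here, so overlapping genes and close copies can gain or lose reads.

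CPM values were counts per 1000000 counts in the same cell. Levels were compared between genes per kilobase of exon union in GENCODE vM21 (main) or of the longest coding transcript. Correlations between genes used log2(CPM + 1). Those within and between subunit classes, CCT genes, ribosomal protein genes and all genes also required a mean of at least 10 CPM. Those of single named pairs, such as Psmb8 with Psmb9, had no such filter. Variation was the residual of log10 squared CV from the running median of log10 squared CV (window of 201 genes, ordered by mean level), at a mean of at least 5 CPM and counts in at least 3 cells. Trends on length and GC content were running medians over 401 genes. Alternatives were median-of-ratios scaling, other pseudocounts, filters and lengths, thinning to the lowest total and leaving out cells. The cells form 1 sample, so no test was run. The labels give no separate cultures. Depth, at 3453708 to 5690184 counts per cell, puts the level that a count of 0 allows at 0.527 to 0.869 CPM.

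Named in the text were Psmb5 to Psmb10, Psme1 to Psme4, Psma8, Psmb11, Psmc3ip, the ends of each class per kilobase, the 5 highest and 3 lowest residuals, every gene with a cell at 0, and examples from the pathway lists. Some genes of these lists are not reported here. Other members named, such as Psma3, Psmd2 and Psmd14, were chosen after their values were seen. The members and lists were chosen with earlier results of these data known. Scripts (scipy 1.17.1 and pandas 2.3.3 under Python 3.11.15) were tested on simulated data.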

Additional observations from a re-analysis of the deposited data

How the results depend on the processing

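Of 39 alternative settings other than leaving out each cell in turn, 30 left the value within the spread between cells, pairs or genes (counts within 1.5 times), and so did 115 of 116 settings that left out 1 cell. For some results this spread was close to or above the value, so the rule could hardly mark a change. It was 11.5 for the immunoproteasome share (9.28%), 0.315 for the standard subunit correlation (0.34) and 0.384 for the member residual (−0.18). The share of 6.07% by coding transcript thus counted as within the spread. Taking the total without mitochondrial genes and the 50 most abundant genes raised the median standard sum from 10559 to 12689 CPM. Without division by length, the SD of subunit levels was 0.80 in place of 0.94. At 1.5-fold in place of 2-fold, the members past the limit in either direction numbered 15 in place of 8 in cell 3, 17 in place of 11 in cell 10, 21 in place of 7 in cell 5 and 16 in place of 4 in cell 9, of 48 each, while 54.6%, 61.1%, 51.2% and 50.8% of all genes passed it in these cells. With a pseudocount of 5, cell 9 had 1. Leaving out 1 cell at a time gave 2 (without cell 6) to 6 (without cell 11) members in cell 9. Adjustments for transcript length and GC content, chosen after seeing the data, narrowed the range of the core minus cap difference from 0.53 to 0.41 and 0.38. Without cell 3, also chosen after seeing the data, the variation residual of Psmb10 turned from 0.84 to −0.11 and that of Psmb8 fell from 1.07 to 0.31, and Psmb9 no longer passed the filter.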
